A study of Mus musculus with 9 samples.

Results

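Timp4, Kcnj3 and Ppp1r17 are 3 genes of the deposited mouse count table whose levels were among the largest rises in GFP+ cells from SAG medium over GFP+ cells from RA medium. They are 3 of 54532 genes in the table, and all 3 passed the filter on low counts that left 16772 tested genes. They were selected on their levels in the SAG GFP+ and RA GFP+ libraries, so their difference between those groups is given as a description, without a test. The RA GFP- libraries and the genes around the 3 were not part of that choice.

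The cells came from neural tube organoids, which are cysts of neural epithelium grown clonally in Matrigel from R1 mouse embryonic stem cells. All 9 libraries carried the FoxA2-Venus allele, a fluorescent reporter of the floor plate factor Foxa2, and all were grown in N2B27 medium, which was exchanged on day 2 and followed by harvest 66 h later. The 3 groups of 3 biological replicates were GFP+ cells from medium with SAG (SAG GFP+), GFP+ cells from medium with all-trans retinoic acid (RA GFP+), and GFP- cells from medium with retinoic acid (RA GFP-). SAG is a small-molecule agonist of Smoothened, the signal transducer of the hedgehog pathway. Its dose is not stated in the labels, which name it in the sample titles alone, and for retinoic acid the treatment protocol writes 250 µM where the description of the series has 250 nM. The titles of the SAG libraries name no retinoic acid, and that medium was taken to lack it. On that reading SAG GFP+ and RA GFP+ cells differ both in SAG and in retinoic acid, whose parts cannot be told apart here. No SAG GFP- group was analysed here, so the effect of the sort is seen in RA medium alone. The RNA of a sorted population is an average over its cells, so that more cells with a transcript and more transcript per cell cannot be told apart.

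Total counts ran from 25281871 to 29763765 per library. Levels are CPM, counts relative to the library total as scaled with TMM factors, 1 count being worth 0.0336 to 0.0407 CPM, and means are given ± SD over 3 libraries. Foxa2, the reporter gene, stood at 326, 212 and 205 CPM in SAG GFP+ replicates 1 to 3, at 184, 157 and 133 CPM in RA GFP+ replicates and at 2.47, 1.33 and 2.51 CPM in RA GFP- replicates, so that the sort held in each library. SAG GFP+ replicate 1 stood apart from the other SAG GFP+ libraries in the list of 5 node and notochord genes, whose summed level was 126 CPM there and 16.9 and 17.2 CPM in replicates 2 and 3. Most of that sum was T (Brachyury), with 110 CPM in SAG GFP+ replicate 1, against 7.94 and 9.81 CPM in replicates 2 and 3. The 6 genes of pluripotent cells also summed higher there, to 225 CPM, against 60.5 and 71.2 CPM in SAG GFP+ replicates 2 and 3.

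The 3 genes have unrelated products. Timp4 encodes a secreted inhibitor of matrix metalloproteinases, 1 of the 4 TIMP proteins, and is known from heart and brain. Kcnj3 encodes GIRK1 (Kir3.1), a subunit of the potassium channels that G protein beta-gamma dimers open when inhibitory receptors are active, as in the atrium and in neurons. Ppp1r17 encodes the G-substrate, a protein known from cerebellar Purkinje cells, which blocks the phosphatases PP1 and PP2A once cGMP-dependent protein kinase has phosphorylated it.

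Timp4 (ENSMUSG00000030317) lies on chromosome 6, 115241892 to 115252205 on the minus strand of GRCm38, with 5894 exon bases. It sits inside the synapsin gene Syn2, which runs on the opposite strand, and shares 90 exon bases (1.53% of its own) with it. Kcnj3 (ENSMUSG00000026824) lies on chromosome 2, 55435970 to 55598145 on the plus strand, with 5215 exon bases and 3 annotated transcripts. The lincRNA gene Gm26794 runs antisense over its start and covers 1621 of these bases (31.1%). Ppp1r17 (ENSMUSG00000002930) lies on chromosome 6, 56017497 to 56032689 on the plus strand, with 1757 exon bases in 1 annotated transcript and no overlapping gene.

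RefSeq promoters (GRCm38.p6) were matched for 2 of the 3 members, Timp4 and Kcnj3, and the 250 bases before each start are shown. Ppp1r17 had no entry among these promoters. Timp4 and Kcnj3 were the most alike pair of the 3 over the libraries (Pearson's r of log2 CPM 0.973, n = 9), which played no part in showing them. Capitals mark matches to the forkhead core TGTTTNC in Timp4 and to the CCAAT box in Kcnj3, on either strand. The Timp4 stretch is chr6:115252206-115252455 (minus strand) and the Kcnj3 stretch is chr2:55435720-55435969 (plus strand).
Timp4: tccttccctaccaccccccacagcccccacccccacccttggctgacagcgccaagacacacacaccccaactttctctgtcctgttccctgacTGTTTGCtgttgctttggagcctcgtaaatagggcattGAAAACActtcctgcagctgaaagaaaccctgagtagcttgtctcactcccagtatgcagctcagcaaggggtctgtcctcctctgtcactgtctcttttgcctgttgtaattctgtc
Kcnj3: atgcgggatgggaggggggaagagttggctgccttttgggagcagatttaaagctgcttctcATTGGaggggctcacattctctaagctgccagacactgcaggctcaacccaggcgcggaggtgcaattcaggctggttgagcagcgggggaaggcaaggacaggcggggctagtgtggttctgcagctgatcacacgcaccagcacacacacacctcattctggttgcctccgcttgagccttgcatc

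The Timp4 stretch held 2 forkhead matches, at -156 and -118 from the start, and the Kcnj3 stretch held 0. At least 1 such match was present in 17.8% of the 32851 promoters of this length in the table. Kcnj3 held 1 CCAAT match at -188, a motif found in 33.8% of promoters, and Timp4 held 0. Each held 1 E-box (CANNTG), the letters CAGCTG in both, which 66.2% of promoters have. Neither stretch held GACCACCCA (the GLI motif, in 0.225% of promoters), the retinoic acid receptor half-site AGGTCA (14%), TATAAA (12.4%) or GGGCGG (32.7%), all searched on both strands. None of the matches overlapped each other. Letters in these windows are a description and say nothing of binding.

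Timp4 was near the floor of detection in RA medium and well expressed in SAG GFP+ cells. It stood at 45.1, 52.9 and 43.3 CPM in SAG GFP+ replicates 1 to 3, at 0.314, 0.202 and 0.0698 CPM in RA GFP+ replicates, and at 0.918, 0.152 and 0.0381 CPM in RA GFP- replicates. In counts, that is 3633 reads over the SAG GFP+ libraries, 16 over the RA GFP+ libraries and 31 over the RA GFP- libraries. The SAG GFP+ libraries lay far above the other 6 and close to each other, while the RA groups overlapped, and 26 of the 31 RA GFP- reads came from replicate 1. The log2 fold change was 7.91 (SE 0.65) for SAG GFP+ over RA GFP+, and 6.94 (SE 0.60) for SAG GFP+ over RA GFP-. The second value was 8.90 without RA GFP- replicate 1.

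Kcnj3 had the same order of magnitude in each group. It stood at 40.9, 23.0 and 29.8 CPM in SAG GFP+ replicates 1 to 3, at 0.235, 0.235 and 0.314 CPM in RA GFP+ replicates and at 0.883, 0.800 and 0.305 CPM in RA GFP- replicates. The 3 groups summed to 2384, 22 and 54 reads in that order. All SAG GFP+ libraries were above all RA libraries, and RA GFP- replicate 3 fell within the range of the RA GFP+ libraries. The log2 fold change was 6.87 (SE 0.41) over RA GFP+ and 5.54 (SE 0.37) over RA GFP-.

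Ppp1r17 differed from the others in both respects. It stood at 1.87, 10 and 13.5 CPM in SAG GFP+ replicates 1 to 3, at 0.0784, 0.134 and 0.209 CPM in RA GFP+ replicates and at 1.77, 1.71 and 1.6 CPM in RA GFP- replicates. SAG GFP+ replicate 1, with 46 reads, was close to the RA GFP- libraries, which had 50, 45 and 42 reads, while SAG GFP+ replicates 2 and 3 had 268 and 347. The highest SAG GFP+ library was 7.21 times the lowest for Ppp1r17, against 1.22 times for Timp4 and 1.78 times for Kcnj3. Among the 10836 tested genes with a mean of at least 5 CPM in SAG GFP+ libraries this ratio had a median of 1.27, and 0.231% of them reached that of Ppp1r17. The log2 fold change was 5.85 (SE 0.72) for SAG GFP+ over RA GFP+ and 2.32 (SE 0.56) for SAG GFP+ over RA GFP-. Without SAG GFP+ replicate 1 the first value was 6.35. Over the fits that left out 1 library each the second value ran from 1.83 (without SAG GFP+ replicate 3) to 2.82 (without SAG GFP+ replicate 1).

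**Figure D1:**
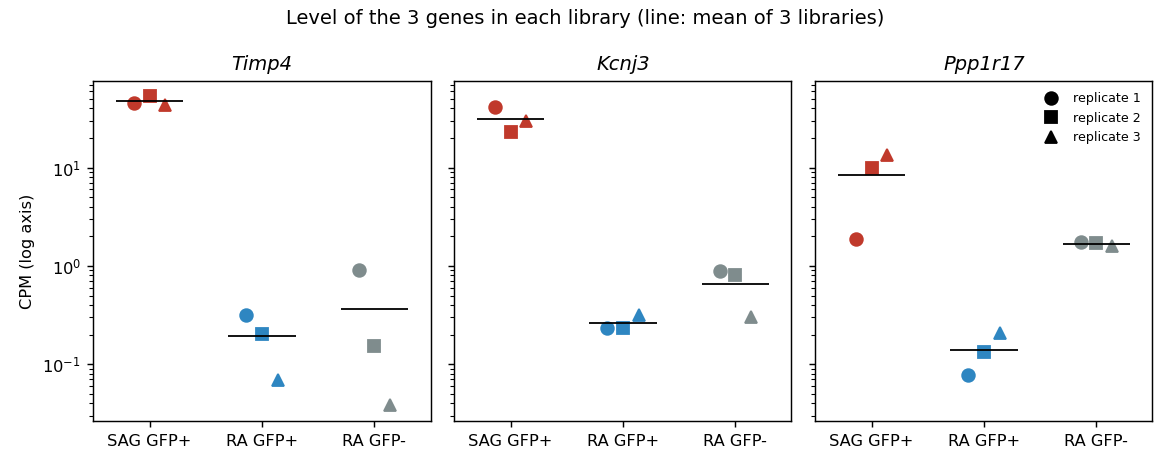
CPM of Timp4, Kcnj3 and Ppp1r17 (log axis) in each of the 9 libraries, by group, with symbols for replicates 1 to 3 and a line at the mean of 3 libraries. The SAG GFP+ libraries of Timp4 (43.3 to 52.9 CPM) and Kcnj3 (23.0 to 40.9 CPM) stand above all RA libraries, whereas SAG GFP+ replicate 1 of Ppp1r17 (1.87 CPM) lies beside the RA GFP- libraries (1.6 to 1.77 CPM).

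Per length of exon, the 3 genes had similar means in SAG GFP+ cells. In SAG GFP+ replicate 1, however, Ppp1r17 had 1.87 CPM over 1757 exon bases, against 7.66 CPM per kb for Timp4 and 7.85 CPM per kb for Kcnj3. On average Timp4 stood at 7.99 ± 0.869 CPM per kb, Kcnj3 at 5.99 ± 1.74 CPM per kb and Ppp1r17 at 4.82 ± 3.40 CPM per kb, and neighbours in this order did not differ beyond their spread. In RA GFP- cells the order was reversed, with Ppp1r17 at 0.963 ± 0.0486 CPM per kb, Kcnj3 at 0.127 ± 0.0600 CPM per kb and Timp4 at 0.0627 ± 0.0812 CPM per kb. Ppp1r17 there stood clear of the other 2, which did not differ beyond their spread. In RA GFP+ cells all 3 were low, at 0.0801 ± 0.0374 for Ppp1r17, 0.0501 ± 0.00871 for Kcnj3 and 0.0331 ± 0.0207 for Timp4, in CPM per kb. Pooled over the RA GFP+ libraries, the exact Poisson 95% interval was 0.109 to 0.310 CPM for Timp4, 0.164 to 0.397 CPM for Kcnj3 and 0.0739 to 0.250 CPM for Ppp1r17, which covers counting error only.

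The log2 fold change of SAG GFP+ over RA GFP+ put Timp4 at rank 2, Kcnj3 at rank 4 and Ppp1r17 at rank 6 of 1299 genes, counting genes that were called higher, had groups that did not overlap and reached 5 CPM in SAG GFP+ libraries. Of all tested genes 9.78% were called higher and 14.8% lower in that comparison, and 19.8% were higher with groups that did not overlap. Since the rule used this contrast, nothing is read from the members' place in it. The genes ranked directly around them were Gm33167, a gene model with 2 counts over the RA GFP+ libraries and so given no fold, the caudal progenitor factor Nkx1-2 at 7.04 (SE 1.36), the proneural factor Neurod4 at 6.30 (SE 0.58) and the T-box factor Tbx20 at 5.78 (SE 0.61). In SAG GFP+ over RA GFP-, which shares the SAG GFP+ libraries, the members stood at ranks 3, 12 and 141 of 1664 genes by the same criteria, where 12% of all tested genes were called higher.

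Within RA medium, the comparison of RA GFP+ with RA GFP- cells is likewise given as a description, since the low RA GFP+ values of the members took part in their choice. Ppp1r17 had a log2 fold change of -3.53 (SE 0.72), with all RA GFP+ libraries below all RA GFP- libraries. Kcnj3 had one of -1.33 (SE 0.45) and Timp4 one of -0.97 (SE 0.81), both with overlapping groups. Timp4 and Kcnj3 had over 9 counts in 1 and 2 of the 6 RA libraries, and passed the filter on low counts through the SAG GFP+ libraries, where they are high. Without RA GFP- replicate 1 the Timp4 value was 0.98. Of all tested genes, 8.43% were called lower and 8.49% higher in this comparison, and 18.1% were lower with groups that did not overlap. Nothing is read from the members against these shares. With the replicate number as a block in the RA libraries alone, 2625 genes were lower in place of 1414, and Ppp1r17 stood at -3.55.

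**Figure D2:**
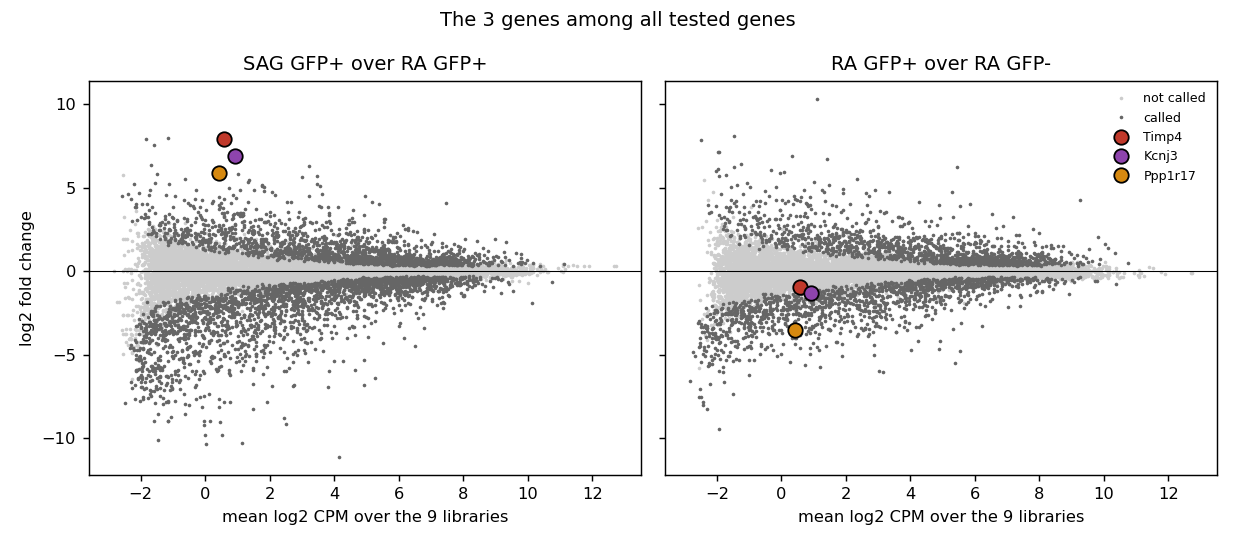
Log2 fold change of the 16772 tested genes against their mean log2 CPM over the 9 libraries, for SAG GFP+ over RA GFP+ (left) and RA GFP+ over RA GFP- (right), with called genes in dark grey and the 3 members in colour. On the left the members lie at the upper edge (5.85 to 7.91) because they were chosen there, and on the right they lie at -3.53 (Ppp1r17), -1.33 (Kcnj3) and -0.97 (Timp4), as a description.

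The genes most like Ppp1r17 over the 9 libraries differed from those most like Timp4 and Kcnj3. Likeness was measured as Pearson's r of log2 CPM over 9 libraries among genes that reach a mean of 5 CPM in a group. It is a description, since the libraries fall into 3 groups that all genes share, and it depends on the measure: by Spearman's rho, 2 of the 5 genes named for Timp4, 2 of those for Kcnj3 and 1 of those for Ppp1r17 were among the 50 most alike. The 5 genes most like Ppp1r17 were Neurod4 (r = 0.984), the neuroendocrine zinc finger factor Insm1 (0.980), the neuronal RNA-binding protein gene Elavl4 (0.980), the reticulon gene Rtn1 (0.980) and Tbl1xr1 (0.979), a subunit of a corepressor complex. Neurod4 stood at 27, 99.8 and 124 CPM in SAG GFP+ replicates 1 to 3, at 0.823, 0.941 and 1.40 CPM in RA GFP+ replicates and at 6.88, 14.9 and 11.5 CPM in RA GFP- replicates. Like Ppp1r17, it was lowest of the SAG GFP+ libraries in replicate 1, low in RA GFP+ cells and intermediate in RA GFP- cells. Insm1 had the same order of groups, at 51.1 ± 22.8 CPM in SAG GFP+, 2.08 ± 0.498 CPM in RA GFP+ and 19.5 ± 4.30 CPM in RA GFP- libraries.

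For Kcnj3 the 5 most alike were Jph4 (r = 0.991), a junctophilin of neurons, Ccdc194 (0.989), Calca (0.981), which encodes calcitonin and the neuropeptide CGRP, Pitrm1 (0.980), a mitochondrial peptidase, and the sialyltransferase gene St8sia3 (0.979). Jph4 stood at 34.1, 16.6 and 23.5 CPM in SAG GFP+ replicates 1 to 3, the same order of replicates as Kcnj3, at 0.902 ± 0.186 CPM in RA GFP+ and at 1.96 ± 0.333 CPM in RA GFP- libraries. Calca stood at 28.4 ± 1.34 CPM in SAG GFP+, 0.851 ± 0.155 CPM in RA GFP+ and 1.47 ± 0.343 CPM in RA GFP- libraries. For Timp4 they were Ccdc194 (0.986), the secreted C1q-like gene C1ql1 (0.982), the glycosylation gene Alg3 (0.976), Nabp2 (0.973), which binds single-stranded DNA, and Kcnj3 itself (0.973). The size of a change does not enter r. In SAG GFP+ over RA GFP+, Alg3 had a log2 fold change of 0.56, Nabp2 0.75, C1ql1 1.16 and Ccdc194 4.36, against 7.91 for Timp4. The smallest was 0.51 (Pitrm1) among the 5 for Kcnj3 and 0.49 (Tbl1xr1) among the 5 for Ppp1r17. The r of Timp4 with Ppp1r17 was 0.730 and that of Kcnj3 with Ppp1r17 was 0.795.

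**Figure D3:**
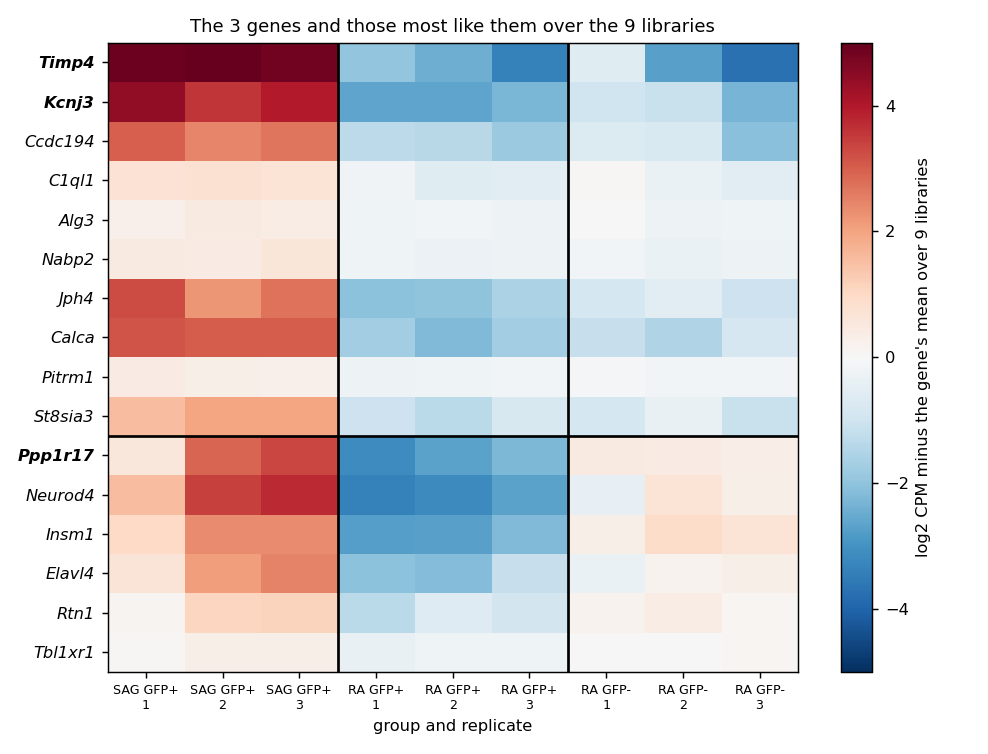
Log2 CPM minus the gene's own mean over the 9 libraries for the members (bold) and the genes most like them, with libraries in columns by group and replicate. The upper block (Timp4, Kcnj3 and alike genes) is above each gene's own mean in all SAG GFP+ libraries, by 4.84 to 5.13 for Timp4 but by 0.27 to 0.45 for Alg3. The lower block (Ppp1r17 and alike genes) is lowest in RA GFP+ libraries and less high in SAG GFP+ replicate 1.

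Markers of neurons were, like Ppp1r17, lowest in RA GFP+ cells. The summed level of 8 neuron genes (Tubb3, Stmn2, Elavl3, Elavl4, Dcx, Map2, Rbfox3 and Snap25) was 355, 504 and 583 CPM in SAG GFP+ replicates 1 to 3, 76.7, 88.3 and 88.5 CPM in RA GFP+ replicates and 289, 414 and 345 CPM in RA GFP- replicates. Of the 8 genes, 7 were higher and 0 lower in SAG GFP+ over RA GFP+ cells, and 0 higher and 8 lower in RA GFP+ over RA GFP- cells. Over all tested genes, 9.78% were higher and 14.8% lower in the first comparison, and 8.49% higher and 8.43% lower in the second. In SAG GFP+ over RA GFP-, 3 of the 8 were higher and 1 lower, against 12% and 16.5% of all tested genes. The lower one was Dcx (-1.83, adjusted p = 0.0101), and the higher ones were Stmn2, Elavl4 and Snap25. Within SAG GFP+ libraries Stmn2 stood at 174, 107 and 196 CPM, not in the order of Ppp1r17. Set against that sum, Ppp1r17 came to 0.528, 1.99 and 2.32 CPM per 100 CPM of neuron markers in SAG GFP+ replicates, 0.102, 0.152 and 0.236 in RA GFP+ replicates, and 0.610, 0.414 and 0.464 in RA GFP- replicates. The groups kept their order on that scale, except that SAG GFP+ replicate 1 fell within the RA GFP- range. Within RA medium the neuron sum was higher in every RA GFP- library than in every RA GFP+ library, while the groups of Timp4 and of Kcnj3 overlapped. Those overlaps rest on few reads. Kcnj3 had 25, 21 and 8 in RA GFP- replicates and 6, 7 and 9 in RA GFP+ replicates. Timp4 had 26, 4 and 1 in RA GFP- replicates and 8, 6 and 2 in RA GFP+ replicates. The 6 genes of pluripotent cells were also lower in RA GFP+ over RA GFP- cells (0 higher, 5 lower), with sums of 35.1 to 47.4 CPM in RA GFP+ and 588 to 960 CPM in RA GFP- libraries. In SAG GFP+ over RA GFP+ cells 3 of them were higher (Pou5f1, Nanog and Tdgf1) and 3 lower, beside 9.78% and 14.8% of all tested genes. Their sums in SAG GFP+ libraries were 60.5 to 225 CPM. Of 6 genes of astrocytes and radial glia 4 were tested, and 4 were higher and 0 lower in SAG GFP+ over RA GFP+ cells, with 0 higher and 2 lower (Fabp7 and Aldh1l1) in RA GFP+ over RA GFP- cells. The first count was 2 when SAG GFP+ replicate 3 or RA GFP+ replicate 1 was left out and 1 when RA GFP+ replicate 3 was, and the second was 1 when RA GFP- replicate 1 or either of replicates 1 and 3 of RA GFP+ was. Their sum was 83.2 to 113 CPM in SAG GFP+, 25.2 to 32.6 CPM in RA GFP+ and 81.5 to 135 CPM in RA GFP- libraries, with S100b at 0 counts in all 3 groups. Most of the RA GFP- sum was Fabp7, at 55.4, 5.34 and 96.0 CPM on average in SAG GFP+, RA GFP+ and RA GFP- libraries. In that order, Aqp4 (3.02, 1.14 and 0.483 CPM) and Slc1a3 (36.1, 19.9 and 12.4 CPM) were lowest in RA GFP- libraries, and Aldh1l1 (4.79, 2.07 and 4.51 CPM) in RA GFP+ libraries. In SAG GFP+ over RA GFP-, 2 were higher (Aqp4 and Slc1a3) and 1 lower (Fabp7). The part of these marker lists in the members' levels was not tested.

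**Figure D4:**
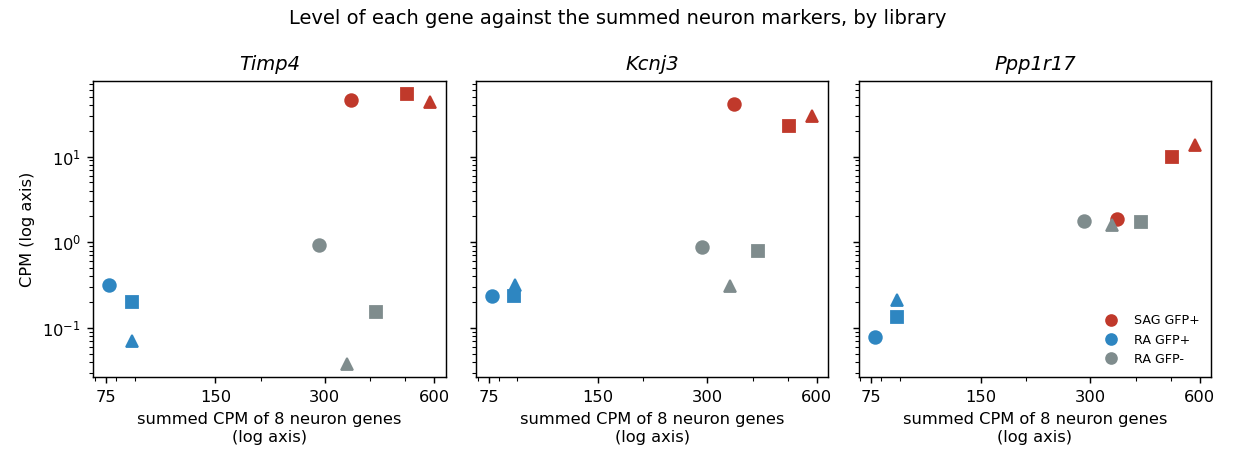
CPM of each member against the summed CPM of the 8 neuron genes in each library, both on log axes, coloured by group. Ppp1r17 is low in RA GFP+ libraries (sums of 76.7 to 88.5 CPM) and highest where the sum is highest (SAG GFP+ replicates 2 and 3). In RA GFP- libraries, at sums of 289 to 414 CPM, Ppp1r17 stands at 1.6 to 1.77 CPM, and Timp4 and Kcnj3 stay below 1 CPM. In SAG GFP+ replicate 1, at a sum of 355 CPM, Ppp1r17 stands at 1.87, Timp4 at 45.1 and Kcnj3 at 40.9 CPM.

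The summed markers of heart muscle, Purkinje cells and fat did not share the members' high level in SAG GFP+ cells. Of 8 cardiomyocyte genes, Nppa had 0 counts in all 3 groups, and the summed level was 9.29 to 10.9 CPM in SAG GFP+, 15.5 to 23.1 CPM in RA GFP+ and 5.14 to 10.6 CPM in RA GFP- libraries. The sum was thus lower in each SAG GFP+ than in each RA GFP+ library. Its largest part in RA GFP+ libraries was Myh7, at 11.6 CPM on average, against 3.84 CPM in SAG GFP+ libraries. Tnni3 went the other way, at 4.28 CPM in SAG GFP+ and 1.56 CPM in RA GFP+ libraries (edgeR adjusted p = 0.0954). Of the 5 tested, 0 were called higher and 2 lower (Myh6 and Myh7), against 9.78% and 14.8% of all tested genes. Of the 7 Purkinje cell genes, Pcp2 had 0 counts in SAG GFP+ libraries, Pvalb and Skor2 had 0 in RA GFP+ libraries, and Skor2 had 0 in RA GFP- libraries. Their sum overlapped between the groups, at 55.3 to 72.8 CPM in SAG GFP+, 53.7 to 70.2 CPM in RA GFP+ and 44.6 to 75.4 CPM in RA GFP- libraries. Most of that sum was Itpr1, an IP3 receptor expressed in many cells, at 61.4, 56.7 and 50.5 CPM on average in SAG GFP+, RA GFP+ and RA GFP- libraries. Of the 3 Purkinje cell genes tested, 0 were called higher and 1 lower (Car8) in SAG GFP+ over RA GFP+. Car8 stood at 0.0667 ± 0.0619 CPM in SAG GFP+ and 0.599 ± 0.238 CPM in RA GFP+ libraries. The 6 adipocyte genes summed to 0.195 to 1.02 CPM in SAG GFP+, 3.21 to 5.13 CPM in RA GFP+ and 2.55 to 3.28 CPM in RA GFP- libraries, with Adipoq, Fabp4 and Lep at 0 counts in SAG GFP+ libraries. Of the 3 adipocyte genes tested, 0 were called higher and 2 lower (Plin1 and Cebpa) in SAG GFP+ over RA GFP+. For both lists the shares over all tested genes were 9.78% higher and 14.8% lower.

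The other TIMP genes went different ways, and Timp4 had the lowest level per length of the 4 in each RA library. Timp3, which binds to extracellular matrix, stood at 213, 239 and 267 CPM in SAG GFP+ replicates, at 71.2, 101 and 42.8 CPM in RA GFP+ replicates and at 11.0, 14.6 and 7.65 CPM in RA GFP- replicates. It rose both in SAG GFP+ over RA GFP+ (log2 fold change 1.74, SE 0.28, adjusted p = 0.00104) and in RA GFP+ over RA GFP- (2.69, SE 0.30, adjusted p = 0.000147). Timp2 fell in SAG GFP+ over RA GFP+ (-0.99, SE 0.17, adjusted p = 0.00134) and rose in RA GFP+ over RA GFP- (1.03, SE 0.17, adjusted p = 0.00160), standing at 36.3 ± 4.36, 72.0 ± 15.9 and 35.3 ± 2.95 CPM in SAG GFP+, RA GFP+ and RA GFP- libraries. Timp1 fell to 1.89 ± 0.633 CPM in SAG GFP+ cells, against 8.16 ± 1.04 CPM in RA GFP+ cells (-2.11, SE 0.33, adjusted p = 0.000822). Of the 3 TIMP genes other than Timp4, 1 was higher and 2 lower in SAG GFP+ over RA GFP+, where 24.5% of all tested genes were called, and 2 were higher and 0 lower in RA GFP+ over RA GFP-, where 16.9% were. In CPM per kb, Timp4 made up 17.5, 17.5 and 14.3% of the 4 genes' sum in SAG GFP+ replicates 1 to 3, at most 0.160% in RA GFP+ replicates and at most 0.646% in RA GFP- replicates. Timp3 held the largest share in SAG GFP+ libraries, from 57.1 to 64%.

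Of the metalloproteinases that TIMPs act on, with the membrane-anchored inhibitor Reck, 19 of 26 genes were tested. In SAG GFP+ over RA GFP+ 3 were higher and 7 lower (median log2 fold change -0.47, against -0.017 over all tested genes, of which 24.5% were called). The gelatinase gene Mmp9 fell to 0.119 ± 0.117 CPM in SAG GFP+ cells, against 4.56 ± 0.0488 CPM in RA GFP+ cells (-5.23, SE 0.57, adjusted p = 7.3e-05; -6.16 without SAG GFP+ replicate 3 and -4.62 without SAG GFP+ replicate 2). Mmp23 fell by 2.62 (SE 0.36, adjusted p = 0.000321), Mmp17 fell by 0.95 (SE 0.18, adjusted p = 0.00326), and the gelatinase Mmp2 had a log2 fold change of 0.17 (SE 0.19, adjusted p = 0.57). In RA GFP+ over RA GFP- 8 were higher and 1 lower (median 0.44, against -0.018 over all tested genes, of which 16.9% were called). The membrane-type protease gene Mmp14 stood at 117 ± 25.8 CPM in RA GFP+ and 25.2 ± 5.05 CPM in RA GFP- cells (2.21, SE 0.21, adjusted p = 5.52e-05), and Mmp2 rose by 1.40 (SE 0.20, adjusted p = 0.000694). Both comparisons share the RA GFP+ libraries, with opposite sign. In SAG GFP+ over RA GFP- 4 were higher and 3 lower (median 0.06), beside 12% and 16.5% of all tested genes. Mmp17 stood at 19.0 ± 1.90, 36.6 ± 8.82 and 18.6 ± 0.721 CPM in SAG GFP+, RA GFP+ and RA GFP- libraries. The count in SAG GFP+ over RA GFP+ fell to 6 called genes without RA GFP+ replicate 1 or replicate 2, and that in RA GFP+ over RA GFP- to 4 on leaving out RA GFP+ replicate 2 and to 5 on leaving out RA GFP- replicate 1.

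Kcnj3 was the 1 tested GIRK subunit. GIRK1 is known to need a partner subunit to form channels at the cell surface, and the partner genes were at or near 0. Kcnj5 (GIRK4) stood at 0, 0.150 and 0.701 CPM in SAG GFP+ replicates 1 to 3, at 0.157, 0 and 0.140 CPM in RA GFP+ replicates and at 0, 0.0762 and 0 CPM in RA GFP- replicates. Kcnj9 (GIRK3) stood at 0.0407, 0.112 and 0.584 CPM in SAG GFP+ replicates, at 0.118, 0.0336 and 0.0349 CPM in RA GFP+ replicates and at 0.247, 0.114 and 0.152 CPM in RA GFP- replicates. Kcnj6 (GIRK2) did not pass 0.0392 CPM in any library. In CPM per kb, Kcnj3 made up 99.9, 98.7 and 95.2% of the sum over the 4 subunits in SAG GFP+ replicates 1 to 3. Within the RA libraries the 4 subunits together had 8 to 32 counts per library, too few to compare shares.

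**Figure D5:**
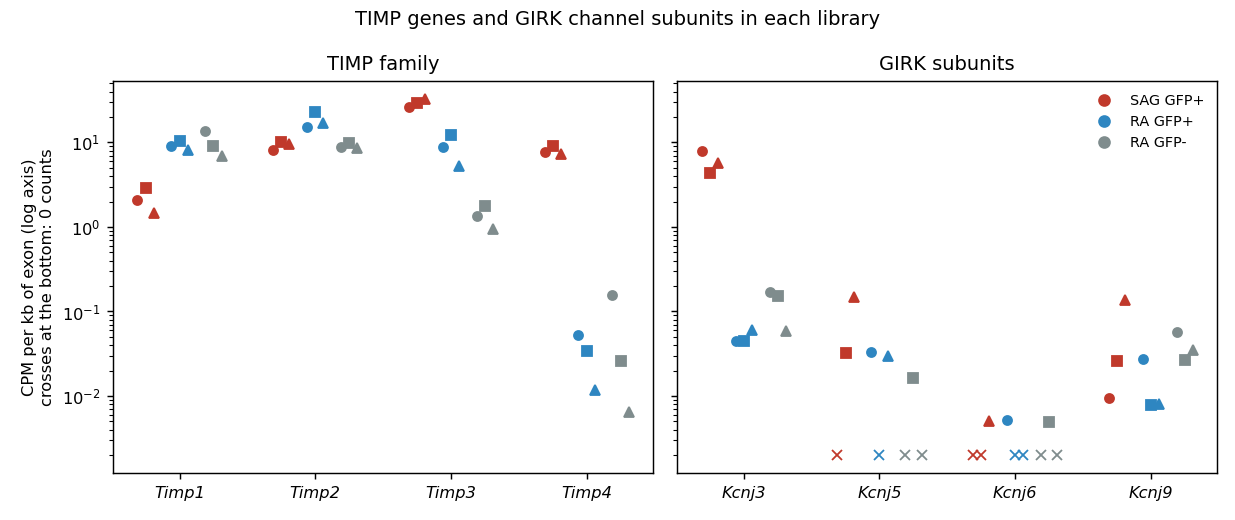
CPM per kb of exon (log axis) of the 4 TIMP genes and the 4 GIRK subunits in each library, coloured by group, with symbols for replicates and crosses at the bottom for 0 counts. Timp4 and Kcnj3 stand at 4.4 to 8.98 CPM per kb in SAG GFP+ libraries, against 0.00646 to 0.169 CPM per kb in RA GFP+ and RA GFP- libraries, while Kcnj5, Kcnj6 and Kcnj9 are low in all groups.

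Of the 11 other inward rectifier genes, 6 were tested, with 0 higher and 2 lower in SAG GFP+ over RA GFP+ (median -0.79) and 1 higher and 0 lower in RA GFP+ over RA GFP- (median 0.77), shares near the 24.5% and 16.9% of all tested genes called. These counts ran from 0 to 2 in both comparisons over the fits that left out 1 library each, and in SAG GFP+ over RA GFP+ they were 0 when SAG GFP+ replicate 2 or either of replicates 2 and 3 of RA GFP+ was left out. Both comparisons share the RA GFP+ libraries, with opposite sign. In SAG GFP+ over RA GFP- 0 were higher and 0 lower (median 0.2), beside 12% and 16.5% of all tested genes. Among G protein subunits and regulators of GIRK channels, 15 of 17 were tested, and 4 were higher and 1 lower in SAG GFP+ over RA GFP+ (median 0.27), against 24.5% of all tested genes called. Gnao1, the G alpha-o subunit of neurons, rose to 63.4 ± 20.2 CPM in SAG GFP+ cells, against 15.8 ± 1.95 CPM in RA GFP+ cells (2.00, SE 0.28, adjusted p = 0.000427). Gng2, a G gamma subunit, rose to 147 ± 73.2 CPM, against 36.0 ± 13.4 CPM in RA GFP+ cells (2.03, SE 0.37, adjusted p = 0.00207), and Gnai2 rose by 0.61 (SE 0.10, adjusted p = 0.00112). That count was 3 when SAG GFP+ replicate 3 or either of replicates 1 and 2 of RA GFP+ was left out. In RA GFP+ over RA GFP- 0 were higher and 1 lower (median -0.12), against 16.9% of all tested genes called, and none was called when RA GFP- replicate 1 or either of replicates 2 and 3 of RA GFP+ was left out.

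Of 16 genes of receptors that signal through inhibitory G proteins, 12 were tested, with 2 higher and 3 lower in SAG GFP+ over RA GFP+ (median -0.54) and 3 higher and 1 lower in RA GFP+ over RA GFP- (median 0.73), beside 24.5% and 16.9% of all tested genes called. The cannabinoid receptor gene Cnr1 stood at 3.47 ± 0.883 CPM in SAG GFP+, 9.82 ± 1.81 CPM in RA GFP+ and 3.50 ± 0.478 CPM in RA GFP- cells, a fall in the first comparison (-1.50, SE 0.28, adjusted p = 0.00229) and a rise in the second (1.49, SE 0.28, adjusted p = 0.00347). The dopamine receptor gene Drd2 fell to 1.06 ± 0.105 CPM in RA GFP+ cells, against 6.65 ± 2.04 CPM in RA GFP- cells (-2.65, SE 0.32, adjusted p = 0.00026). The first count was 2 called genes when RA GFP+ replicate 1 was left out, and 3 when replicate 2 or 3 of that group was. Both comparisons share the RA GFP+ libraries, with opposite sign. In SAG GFP+ over RA GFP- 2 were higher and 1 lower (median -0.01), beside 12% and 16.5% of all tested genes.

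The targets of the G-substrate were read through the catalytic subunits of its phosphatases. Of the 5 catalytic subunit genes of PP1 and PP2A, 1 was higher and 0 lower in SAG GFP+ over RA GFP+, and 0 were called in RA GFP+ over RA GFP-, beside the same shares of all tested genes (24.5% and 16.9%). The higher one was Ppp1cc (log2 fold change 0.47, SE 0.13, adjusted p = 0.0175), a call lost when SAG GFP+ replicate 3 (0.0684) or one of replicates 1 (0.0557) and 2 (0.0877) of RA GFP+ was left out. The median of the 5 was 0.02 in the first comparison and 0 in the second. Of the PP1 and PP2A inhibitor genes other than Ppp1r17, 14 were tested, with 4 higher and 0 lower in SAG GFP+ over RA GFP+ (24.5% of all tested genes called) and 0 higher and 1 lower in RA GFP+ over RA GFP- (16.9% called). With Ppp1r17 counted, whose own call is not read as a test, the first comparison had 5 called genes, and 3 without RA GFP+ replicate 2. Ppp1r1b (DARPP-32), an inhibitor known from striatal neurons, rose to 17.9 ± 2.77 CPM in SAG GFP+ cells, against 1.54 ± 0.265 CPM in RA GFP+ cells (3.53, SE 0.33, adjusted p = 2.5e-05). Ppp1r1a (inhibitor 1) was lowest in RA GFP+ and highest in RA GFP- cells, at 10.1 ± 1.05 CPM in SAG GFP+, 4.92 ± 1.52 CPM in RA GFP+ and 18.5 ± 3.17 CPM in RA GFP- cells, and passed the test in both comparisons (1.04, SE 0.25, adjusted p = 0.00967, and -1.91, SE 0.25, adjusted p = 0.000439).

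Of the cGMP pathway, which acts upstream of the G-substrate, all 14 genes were tested, with 3 higher and 2 lower in SAG GFP+ over RA GFP+ (median 0.55) and 2 higher and 0 lower in RA GFP+ over RA GFP- (median 0.06), beside 24.5% and 16.9% of all tested genes called. The kinase genes Prkg1 and Prkg2, named after their values were seen because they encode the kinases that act on the G-substrate, were not called in either. Prkg1 stood at 2.22 ± 0.112, 1.51 ± 0.715 and 0.654 ± 0.365 CPM and Prkg2 at 2.23 ± 0.585, 1.28 ± 0.331 and 1.98 ± 0.776 CPM in SAG GFP+, RA GFP+ and RA GFP- libraries. The natriuretic peptide receptor gene Npr1 fell to 4 ± 1.39 CPM in SAG GFP+ cells, against 18.6 ± 4.08 CPM in RA GFP+ cells (-2.22, SE 0.27, adjusted p = 0.00014). The cGMP phosphodiesterase genes Pde9a (1.39, SE 0.26, adjusted p = 0.00237) and Pde5a (0.93, SE 0.18, adjusted p = 0.00355) rose in that comparison, and Pde5a rose also in RA GFP+ over RA GFP- (1.02, SE 0.19, adjusted p = 0.0032). The second count was 1 without any of SAG GFP+ replicate 2, RA GFP+ replicates 1 and 2, and RA GFP- replicates 1, 2 and 3.

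Genes close to the members were read beside them. Vgll4, whose start lies 282.2 kb from that of Timp4, fell in SAG GFP+ over RA GFP+ (log2 fold change -0.71, SE 0.17, edgeR adjusted p = 0.0118). Syn2, the gene that Timp4 sits in, was low and stood at 1.30, 1.42 and 2.76 CPM in SAG GFP+ replicates, 0.862, 0.638 and 0.907 CPM in RA GFP+ replicates and 0.988, 1.26 and 1.18 CPM in RA GFP- replicates (1.19 for SAG GFP+ over RA GFP+, adjusted p = 0.0523). Of the other synapsin genes, which host Timp1 and Timp3, Syn1 rose in SAG GFP+ over RA GFP+ (0.85, SE 0.22, adjusted p = 0.0168; on leaving out RA GFP+ replicate 1 it was 0.078, and on leaving out replicate 3 of that group 0.0553), and Syn3 had a log2 fold change of 0.41 (adjusted p = 0.498). Timp1 and Syn1 thus differed in direction. Ppp1r17 has 2 protein-coding neighbours with a start within 500 kb, Neurod6 with 0 counts in all libraries and Itprid1 at 0.0531, 0.277 and 0.0254 CPM on average in SAG GFP+, RA GFP+ and RA GFP- libraries. Kcnj3 has 0 protein-coding starts within 500 kb, the nearest being that of Galnt13 at 999.7 kb.

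The antisense lincRNA over the start of Kcnj3 was, like Kcnj3, far higher in SAG GFP+ than in RA libraries. Gm26794 stood at 1.43, 2.77 and 2.65 CPM in SAG GFP+ replicates 1 to 3, at 0, 0.0336 and 0.0349 CPM in RA GFP+ replicates and at 0, 0.0762 and 0.152 CPM in RA GFP- replicates. Its SAG GFP+ level was lowest in replicate 1, where that of Kcnj3 was highest. It had 177 counts over the SAG GFP+ libraries, against 2 over the RA GFP+ libraries, a ratio of 96.6 with an exact 95% interval of 26.3 to 804 that covers counting error only. The strand setting of the counting is not given in the sources used here, so reads of the 2 genes in the shared bases cannot be told apart.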

How the data were processed

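RNA was sequenced from 9 libraries, 3 per group, which the labels call biological replicates. The submitters' processing notes list Bowtie2 2.3.4.1 with GRCm38, featureCounts of Subread 1.6.2, and Trim Galore 0.5.0. The deposited values are raw counts per gene, as the authors made them. Not given in the sources used here are the annotation release, the strand setting and how multi-mapping reads were treated. Gene models and symbols were taken from GENCODE and matched 54409 of 54532 identifiers.

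The counts were filtered with filterByExpr (minimum count 10), scaled with TMM and fitted over all 9 libraries with the quasi-likelihood test of edgeR 4.0.16 in R 4.3.3, and p-values were adjusted by Benjamini-Hochberg over the 16772 tested genes. Called means an adjusted p under 0.05. A test of the members in RA GFP+ over RA GFP- was planned, and is given as a description because their RA GFP+ levels took part in the choice. Total counts were 25281871 to 29763765 per library, so that 1 count is worth 0.0336 to 0.0407 CPM. Levels per length use the merged exons of a gene. Only the edgeR steps were tested on simulated data. These gave all genes the same spread, so genes of larger spread such as Ppp1r17 were not covered.

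The members and gene lists were chosen with earlier results of these data known. Genes are named by a rule: the members, all TIMP, synapsin and GIRK genes, the called members of the other lists with the smallest adjusted p (the first 3 in SAG GFP+ over RA GFP+, the first 2 in RA GFP+ over RA GFP-), the 5 genes most like each member, protein-coding neighbours within 500 kb, and the genes ranked next to a member. Some of these are given as counts only, some neighbours of Timp4 are not reported here, and exceptions are stated where they occur.

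Libraries of the same replicate number deviated together between RA GFP+ and RA GFP- (r across genes of 0.273, 0.307 and 0.347, all above the limit of 0.1), so the number pairs these libraries. The main fit does not use this pairing, and the calls in RA GFP+ over RA GFP- come from that fit unless the replicate block is named. SAG GFP+ libraries were not paired with RA GFP+ (0.111, -0.082 and 0.182) or with RA GFP- (0.175, -0.022 and 0.242). Alternatives were RLE scaling, no filter, a minimum count of 30, the compared groups alone, the replicate block, DESeq2 1.42.0, each library left out, Spearman's rho and a prior count of 0.5 in place of 2 for likeness, and another gene length or total for levels per length.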

Additional observations from a re-analysis of the deposited data

How the results depend on the processing

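In RA GFP+ over RA GFP- the log2 fold change of Ppp1r17 was negative under every alternative, at -3.91 to -3.27 with 1 library left out. With 1 library left out, Timp4 ran from -1.48 to 0.98 in that comparison, Kcnj3 from -1.67 to -1.06, and Timp4 in SAG GFP+ over RA GFP- from 6.42 to 8.90. Kcnj3 stood at -1.31 with no low-count filter and at -1.35 in DESeq2, and passed the threshold there, but is read as a description. Timp4 and Kcnj3 had too few counts to pass the filter in fits of the 6 RA libraries alone. At 12 to 22 reads over the RA GFP+ libraries, depth limits every fold against that group.

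The replicate block in the RA libraries alone gave 2615 genes higher and 2625 lower in RA GFP+ over RA GFP-, in place of 1424 and 1414. With 1 library left out, these ran from 893 to 1684 (lowest without RA GFP+ replicate 2) and from 890 to 1684 (890 for RA GFP+ replicate 2 left out, 915 for replicate 1), and genes higher in SAG GFP+ over RA GFP+ from 954 to 2092 (954 and 957 for RA GFP+ replicates 1 and 2 left out, against 1641).

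For the lists in RA GFP+ over RA GFP-, called genes with 1 library left out ran from 0 to 1 for synapsins, 4 to 9 for metalloproteinases, 0 to 1 for GIRK subunits, 0 to 2 for other inward rectifiers, 0 to 1 for G proteins and 1 to 2 for the cGMP pathway. Synapsins had 0 with no filter or the compared groups alone, GIRK subunits (Kcnj3 alone) 1 with no filter or DESeq2, and other inward rectifiers 2 with RLE scaling, no filter, the block over all libraries or DESeq2, and 3 with the block in the compared groups. Inhibitors, counted with Ppp1r17, had 4 with no filter and 6 with the block in the compared groups, in place of 2. The cGMP pathway had 1 with a minimum count of 30 or the compared groups alone. Nothing is read from the calls of Kcnj3 and Ppp1r17 in these counts.

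In SAG GFP+ over RA GFP+ the ranges were 0 to 2 for synapsins, 6 to 10 for metalloproteinases, 0 to 2 for other inward rectifiers, 3 to 6 for G proteins, 2 to 5 for Gi-coupled receptors, 0 to 1 for catalytic subunits and 3 to 5 for inhibitors. Synapsins had 2 with a minimum count of 30 or DESeq2, other inward rectifiers 1 with the compared groups alone and 0 with the block in them, and catalytic subunits 2 with either block. In SAG GFP+ over RA GFP- the ranges were 0 to 1 for catalytic subunits, 2 to 5 for inhibitors and 4 to 8 for the cGMP pathway. There Gi-coupled receptors had 1 with a minimum count of 30, catalytic subunits 2 with the block over all libraries, and inhibitors 7 with that block or DESeq2. Inhibitors were counted with Ppp1r17 in both comparisons (5 and 4 in the main fit), and its calls are not read as tests. By Spearman's rho, 2, 2 and 1 of the 5 genes most like Timp4, Kcnj3 and Ppp1r17 were among their 50 most alike. In counts added after seeing the data, called markers of astrocytes and radial glia ran from 1 to 4 in SAG GFP+ over RA GFP+ and from 1 to 3 in RA GFP+ over RA GFP- with 1 library left out, and were 4 there in DESeq2. The cause of these changes was not tested.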

Other observations

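Pde1c, the gene of a calmodulin-dependent phosphodiesterase of cyclic nucleotides, lies 37.1 kb beyond the end of Ppp1r17, on chromosome 6 from 56069804 to 56569103 on the minus strand of GRCm38. It was singled out after its values were seen. Pde1c stood at 3.01, 6.18 and 8.29 CPM in SAG GFP+ replicates 1 to 3, at 1.06, 0.571 and 1.26 CPM in RA GFP+ replicates and at 0.388, 1.41 and 1.45 CPM in RA GFP- replicates. SAG GFP+ replicate 1 was the lowest of its group, as for Ppp1r17, and the RA groups overlapped. Its log2 fold change was 2.60 (SE 0.54, edgeR adjusted p = 0.00457) for SAG GFP+ over RA GFP+.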
